A study of Mus musculus with 7 samples.

Results

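Aminoacyl-tRNA synthetases are the enzymes that join each amino acid to its transfer RNA. The 35 genes described here were taken by symbol: 20 encode enzymes named as cytosolic and 15, whose symbols end in 2, encode the mitochondrial forms. All 35 were found among the 31274 rows of the expression table, and all 35 were among the 13920 rows with at least 1 FPKM (fragments scaled to transcript length and to the mapped fragments of the library) in at least 3 libraries, which were the rows tested. RNA-seq had been made from uteri of unexposed CD-1 mice, an outbred strain, aged 2 months. There were 4 libraries from diestrus, the phase of the cycle with high progesterone, and 3 from estrus, which follows the rise in estrogen. No allele, transgene or agent is named for either group. Whether the libraries come from different animals is not in the labels. The p-values therefore refer to the scatter among the libraries, and part of that scatter may be technical.

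A synthetase activates its amino acid with ATP and transfers it to the matching tRNA, and some of these enzymes also hydrolyse mischarged products. Cytosolic synthetases supply the ribosomes that translate nuclear mRNAs, and several of them are held in a multisynthetase complex on scaffold proteins. Mitochondrial synthetases are encoded in the nucleus, imported, and supply the mitochondrial ribosomes that make subunits of the respiratory chain. Several cytosolic synthetase genes are known targets of ATF4, the transcription factor of the amino acid response. The split by symbol is not complete, since Gars and Kars each encode both a cytosolic and a mitochondrial form, Eprs carries the glutamyl and prolyl enzymes in one protein, and Farsa and Farsb are the subunits of one enzyme.

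The amino acid response element is a short DNA motif that ATF4 is known to bind, and its matches in synthetase promoters are shown because they were found beside cytosolic and not beside mitochondrial genes among those searched. Promoter windows, from 250 bases before to 50 after the annotated start, were taken from RefSeq (build GRCm38.p6). Windows of 26 of the 35 members were searched, 13 cytosolic and 13 mitochondrial. Those of Cars, Hars, Lars, Nars, Rars, Vars, Wars, Hars2 and Pars2 were left out of the search. Whether these genes, of which Cars, Lars and Nars rose at estrus, have a match was not tested. The letters TGATGNAA, on either strand, were found in 5 of the 13 cytosolic windows and in 0 of the 13 mitochondrial ones. They were found in 3.97% of the 32851 windows in the table. The match nearest the start is shown for each gene. Capitals mark it in each stretch of 30 bases, printed 5′ to 3′ on the strand of the gene.
Aars, chr8:111033840-111033869, plus strand: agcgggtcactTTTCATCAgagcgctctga
Gars, chr6:55037960-55037989, plus strand: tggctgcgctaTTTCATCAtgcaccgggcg
Iars, chr13:49682126-49682155, plus strand: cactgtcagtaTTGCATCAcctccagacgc
Tars, chr15:11399655-11399684, minus strand: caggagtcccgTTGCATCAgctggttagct
Yars, chr4:129189895-129189924, plus strand: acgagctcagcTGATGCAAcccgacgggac
In the Yars window the letters read forward along the gene, and in the other windows they read on the opposite strand. Counted from the first transcribed base as 0, these matches begin at 9 in Aars, −30 in Gars, 7 in Iars, −15 in Tars and 3 in Yars. A match is a description of the letters and no evidence of binding.

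The other motifs were counted in the same windows. The core of sites for ETS factors, CCGGAAG, was in 5 cytosolic and 4 mitochondrial windows, against 8.86% of all windows. The E box CACGTG was in 4 cytosolic windows and 1 mitochondrial window (7.15% of all windows). A gamma-interferon activated site, TTCNNNGAA, was in 2 cytosolic windows and 1 mitochondrial one (8.3%). The palindromic NRF1 site was in 0 windows of either group (0.971% of all), as was the palindromic estrogen response element (0.07%). The 250 bases before the start are printed for Gars and Mars2, a cytosolic and a mitochondrial gene with higher FPKM at estrus whose windows both hold the ETS core. Capitals mark the ETS core and, in Gars, also the amino acid response element match.
Gars, chr6:55037751-55038000, plus strand: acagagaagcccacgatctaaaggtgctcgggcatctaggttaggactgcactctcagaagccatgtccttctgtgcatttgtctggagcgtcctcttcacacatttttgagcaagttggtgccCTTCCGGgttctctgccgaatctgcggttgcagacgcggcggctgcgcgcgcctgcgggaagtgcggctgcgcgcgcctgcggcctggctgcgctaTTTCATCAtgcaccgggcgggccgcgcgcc
Mars2, chr1:55236927-55237176, plus strand: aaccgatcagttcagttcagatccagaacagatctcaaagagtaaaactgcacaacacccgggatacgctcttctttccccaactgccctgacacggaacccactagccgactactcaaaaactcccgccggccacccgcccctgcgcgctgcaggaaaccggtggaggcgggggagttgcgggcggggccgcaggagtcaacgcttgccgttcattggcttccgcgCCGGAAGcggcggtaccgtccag

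Estrus was compared with diestrus to find which of these enzymes change with the phase of the cycle. Of the 20 cytosolic enzymes, 8 rose at estrus and 0 fell (limma across all rows tested, Benjamini-Hochberg adjusted p under 0.05). Of the 15 mitochondrial enzymes, 4 rose and 0 fell. Across all rows tested, 17.2% were called higher, 14.0% lower and 31.1% in either direction, so the shares called higher were 40.0% of the cytosolic and 26.7% of the mitochondrial enzymes. At an unadjusted p under 0.05, 12 cytosolic enzymes were higher and 1 was lower, and 6 mitochondrial enzymes were higher and 0 lower. Fold changes are given as the difference of the group means of log2(FPKM + 1), estrus minus diestrus. Their median was 0.46 over the cytosolic enzymes, 0.28 over the mitochondrial enzymes and 0.05 over all rows. A positive fold change was seen for 16 of 20 cytosolic and 13 of 15 mitochondrial enzymes, against 53.2% of all rows. All estrus libraries lay above all diestrus libraries for 10 cytosolic and 6 mitochondrial enzymes (21.9% of all rows). The opposite held for 0 members (18.7% of all rows). Under quantile normalization, which forces 1 distribution on every library, the cytosolic calls were 1 higher (Lars) and 1 lower (Wars), against 12.1% and 13.8% of all rows, while 3 mitochondrial calls were higher (Nars2, Lars2 and Mars2). Positive fold changes then numbered 15 cytosolic and 13 mitochondrial, against 48.5% of all rows.

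**Figure D1:**
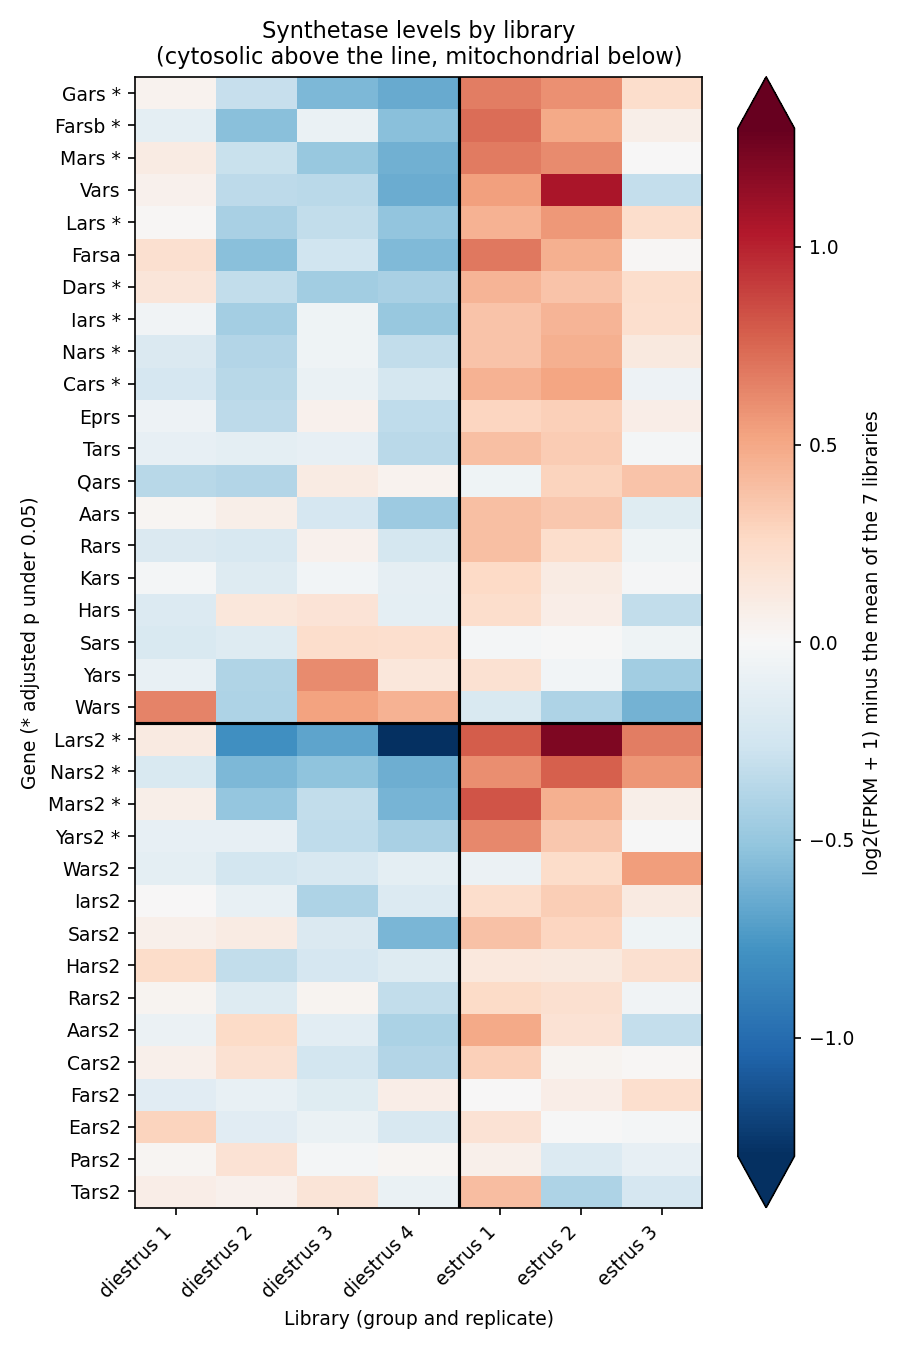
Level of each synthetase in each library, as log2(FPKM + 1) minus the mean of that gene over the 7 libraries, with cytosolic enzymes above the line, mitochondrial enzymes below it, and an asterisk for an adjusted p under 0.05. Red, above the mean, fills most of the estrus columns, and estrus 3 is the lowest estrus library for 29 of the 35 genes.

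The multisynthetase complex holds 8 of the cytosolic enzymes, of which 4 rose (Lars, Iars, Dars and Mars) and 8 had a positive fold change, with a median of 0.50. The leucyl enzyme Lars, known also as a leucine sensor for mTORC1, measured 32.7, 23.8, 25.6 and 22.3 FPKM in diestrus 1 to 4 and 44.7, 48.1 and 38.0 FPKM in estrus 1 to 3. Its groups did not overlap, and its log2 fold change was 0.73 ± 0.16 (SE; adjusted p = 0.0139). The isoleucyl enzyme Iars (chr13:49682100-49734267, plus strand, GENCODE M21 on GRCm38, as for the other positions of genes) measured 32.1, 24.1, 32.0 and 23.4 FPKM in diestrus and 43.1, 45.6 and 38.9 FPKM at estrus. All 3 estrus libraries exceeded the diestrus ones, by 0.60 ± 0.15 (adjusted p = 0.0234). The aspartyl enzyme Dars (chr1:128363707-128417368, minus strand) measured 56.8, 40.7, 36.9 and 37.7 FPKM in diestrus and 69.7, 66.2 and 60.0 FPKM at estrus. Diestrus 1 was the diestrus library closest to estrus, and the fold change was 0.61 ± 0.17 (adjusted p = 0.0303). The methionyl enzyme Mars (chr10:127296221-127311786, minus strand), which charges the initiator as well as the elongator tRNA, measured 30.7, 23.2, 20.0 and 18.2 FPKM in diestrus and 46.1, 44.1 and 28.7 FPKM at estrus. Estrus 3 lay below diestrus 1, so the groups overlapped, and the fold change was 0.75 ± 0.23 (adjusted p = 0.0392).

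The 4 complex enzymes that did not pass were Eprs, Kars, Qars and Rars. The lysyl enzyme Kars measured 82.5, 75.1, 82.3 and 77.4 FPKM in diestrus and 101, 90.8 and 83.4 FPKM at estrus, a log2 fold change of 0.21 (adjusted p = 0.195) that was −0.03 under quantile normalization. The groups did not overlap, but estrus 3 was within 1 FPKM of the highest diestrus library. The glutaminyl enzyme Qars was at 69.8, 68.8, 96.7 and 92.7 FPKM in diestrus and 86.3, 110.2 and 117 FPKM at estrus (0.35, adjusted p = 0.167), with estrus 1 inside the diestrus range. The arginyl enzyme Rars was at 54.4, 53.6, 64.4 and 52.8 FPKM in diestrus and 81.7, 72.5 and 59.4 FPKM at estrus (0.33, adjusted p = 0.115). Estrus 3 again lay inside the diestrus range. Eprs ranged from 46.3 to 61.4 FPKM in diestrus and from 62.8 to 73.3 FPKM at estrus (0.40, adjusted p = 0.0627).

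The scaffold of the complex consists of Aimp1, Aimp2 and Eef1e1 (AIMP3). Eef1e1 rose by 1.08 ± 0.33 (adjusted p = 0.0436), at 25.9, 10.7, 15.9 and 11.4 FPKM in diestrus and 43.8, 36.0 and 22.5 FPKM at estrus. Its groups overlapped through diestrus 1 and estrus 3. Without any one of diestrus 2 (adjusted p = 0.0903), diestrus 3 (0.0777), diestrus 4 (0.103), estrus 1 (0.137) or estrus 2 (0.141), Eef1e1 was no longer called. Aimp1 (0.11, adjusted p = 0.581) and Aimp2 (−0.02, adjusted p = 0.947) were not called.

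Outside the complex, 4 of 12 cytosolic enzymes rose (Gars, Nars, Farsb and Cars), with a median over the 12 of 0.46. Gars (chr6:55038007-55079500, plus strand), the glycyl enzyme whose promoter is printed above, measured 76.7, 60.3, 49.3 and 47.0 FPKM in diestrus and 119, 113 and 87.6 FPKM at estrus. The groups did not overlap, and its log2 fold change of 0.87 ± 0.20 (adjusted p = 0.0167) was the largest of the 20 cytosolic enzymes. The asparaginyl enzyme Nars measured 88.2, 77.0, 97.1 and 80.4 FPKM in diestrus and 131, 139 and 109.9 FPKM at estrus. It had the highest mean of the 35 genes, 103 FPKM over the 7 libraries, its groups did not overlap, and the fold change was 0.56 ± 0.14 (adjusted p = 0.0218). Cars (chr7:143557230-143600090, minus strand), the cysteinyl enzyme, measured 15.6, 14.0, 17.2 and 15.5 FPKM in diestrus and 25.5, 26.5 and 17.4 FPKM at estrus. Estrus 3 exceeded diestrus 3 only narrowly, and the fold change was 0.52 ± 0.16 (adjusted p = 0.0458).

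Phenylalanyl-tRNA synthetase is a tetramer of Farsa and Farsb chains. Farsb (chr1:78417975-78488897, minus strand), the beta chain, measured 43.6, 32.3, 44.8 and 32.3 FPKM in diestrus and 79.6, 67.4 and 50.1 FPKM at estrus. Its groups did not overlap (0.76 ± 0.20, adjusted p = 0.0262). Farsa, the alpha chain, had a fold change of similar size, 0.68 ± 0.24, with groups that overlapped and an adjusted p of 0.0614. Farsb shares 250 bases, on opposite strands, with Sgpp2, a sphingosine phosphate phosphatase gene that also rose (0.90, adjusted p = 0.0056). Whether fragments were assigned by strand is not given in the sources used here, so reads of such antisense neighbours cannot be told apart.

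Tars, Vars and Aars were not called either, with log2 fold changes of 0.40 (adjusted p = 0.0578), 0.75 (0.105) and 0.34 (0.204). Vars, the valyl enzyme, was spread widely at estrus, at 40.8, 59.0 and 22.2 FPKM, against 17.4 to 28.9 FPKM in diestrus. The 4 cytosolic enzymes with a negative fold change were Hars (−0.01), Sars (−0.05), Yars (−0.17) and Wars (−0.71), and none passed the test. Wars, the tryptophanyl enzyme and a known interferon gamma target, measured 101, 48.3, 93.1 and 88.0 FPKM in diestrus and 55.9, 48.3 and 41.7 FPKM at estrus (SE 0.26, adjusted p = 0.0706). Diestrus 2 lay at the level of the estrus libraries, while the other diestrus libraries were higher than all of estrus. Without diestrus 2 the fold change of Wars was −0.94 (adjusted p = 0.00857), and under quantile normalization it was −0.91 (adjusted p = 0.0331).

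**Figure D2:**
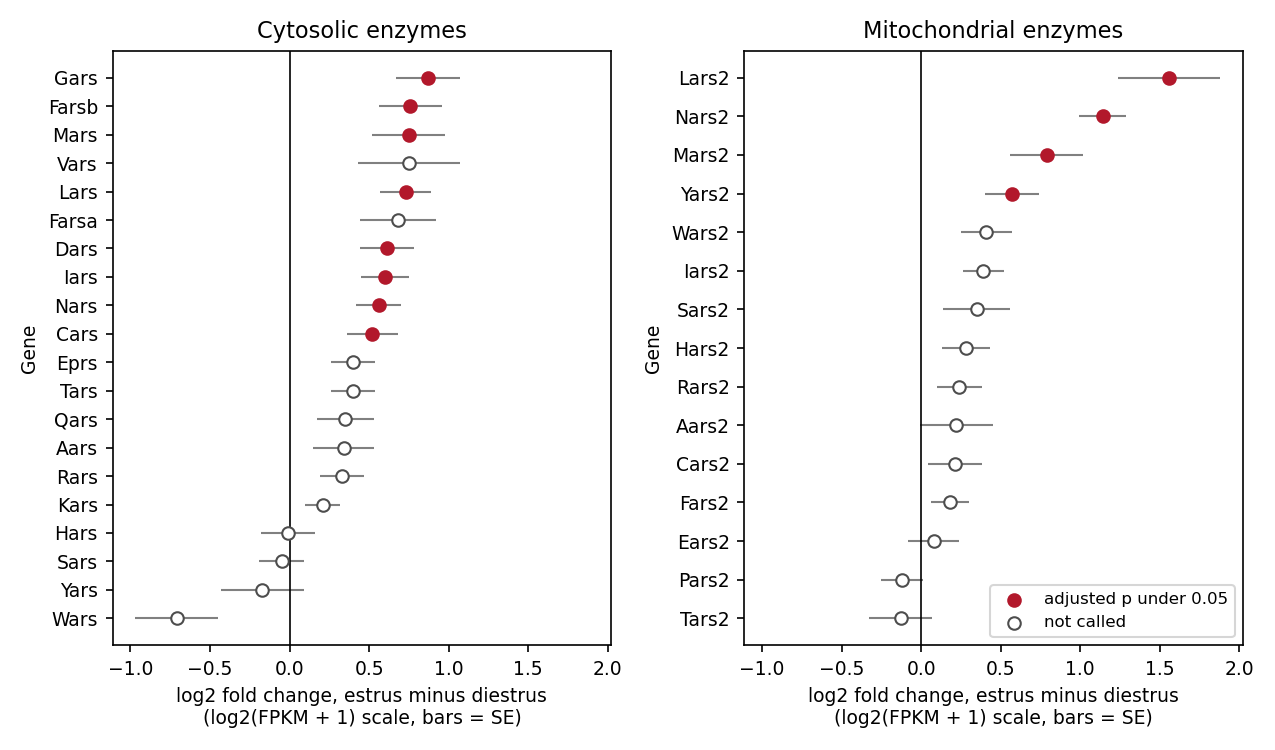
Log2 fold change of each synthetase, as log2(FPKM + 1) at estrus minus diestrus, with its standard error as a bar, for cytosolic (left) and mitochondrial enzymes (right). Filled points have an adjusted p under 0.05, and they lie between 0.52 and 1.56.

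Among the mitochondrial enzymes, Lars2 and Nars2 had the largest fold changes of the 35 genes. Nars2 (chr7:96951505-97064758, plus strand), the mitochondrial asparaginyl enzyme, measured 3.84, 2.71, 2.87 and 2.58 FPKM in diestrus and 7.44, 8.53 and 7.32 FPKM at estrus. The mean was 3.00 ± 0.57 FPKM in diestrus (SD, n = 4) and 7.76 ± 0.67 FPKM at estrus (SD, n = 3), and the log2 fold change was 1.14 ± 0.15 (limma adjusted p = 0.00265). Nars2 was the one member called in each of the 7 fits that left out a library, with adjusted p-values from 0.00193 to 0.0216. Its transcript shares 284 bases, on opposite strands, with the antisense gene C230038L03Rik.

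The mitochondrial leucyl enzyme Lars2 (chr9:123366927-123462666, plus strand) measured 88.5, 46.7, 50.4 and 32.5 FPKM in diestrus and 142, 191 and 130.4 FPKM at estrus. The groups did not overlap, diestrus 1 was the closest to estrus, and the fold change was 1.56 ± 0.32 (adjusted p = 0.0108). Without diestrus 1 it was 1.82 (adjusted p = 0.00262), and without estrus 2 it was 1.40 and no longer called (adjusted p = 0.055). Lars2 alone supplied a large share of the summed mitochondrial synthetase FPKM, which ran from 161 to 242 in diestrus and from 290 to 364 at estrus. Without Lars2 these sums were 128 to 154 and 159.6 to 189 FPKM, and the groups still did not overlap. No stretch of its transcript met the limit for sequence shared with another gene (95% identity over 100 bases). That search covered GENCODE M21 transcripts only, and less similar stretches were not kept. A row named only by a GenBank entry, described below, was likewise high in diestrus 1 and at estrus, and at 0 in diestrus 2, 3 and 4. Whether it bears on the Lars2 values was not tested.

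The other mitochondrial enzymes called were Mars2 and Yars2. Mars2 (chr1:55237177-55248470, plus strand), which charges the only mitochondrial methionine tRNA, measured 3.83, 2.23, 2.68 and 2.01 FPKM in diestrus and 7.11, 5.31 and 3.85 FPKM at estrus. Estrus 3 was almost level with diestrus 1, and the fold change was 0.79 ± 0.23 (adjusted p = 0.0363). Yars2 (chr16:16302965-16309640, plus strand), the tyrosyl enzyme, in which mutations are a known cause of a myopathy with sideroblastic anemia, measured 9.28, 9.29, 7.83 and 7.28 FPKM in diestrus and 16.1, 13.2 and 10.1 FPKM at estrus. Its groups did not overlap (0.57 ± 0.17, adjusted p = 0.042).

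Of the 11 mitochondrial enzymes not called, 9 had positive fold changes from 0.08 (Ears2) to 0.41 (Wars2), and Pars2 (−0.12) and Tars2 (−0.13) had negative ones. The isoleucyl enzyme Iars2 came nearest the threshold, at 22.3 to 30.0 FPKM in diestrus and 32.5 to 37.5 FPKM at estrus (0.39, adjusted p = 0.0521). Iars2 shares 2034 bases, on opposite strands, with Rab3gap2, which rose (0.48, adjusted p = 0.0366), a call kept only without diestrus 1 or estrus 1 (0.15 without estrus 2). Wars2 was the only mitochondrial member besides Iars2 with groups that did not overlap and no call, at 3.12 to 3.46 FPKM in diestrus and 3.64, 4.76 and 6.09 FPKM at estrus (adjusted p = 0.0892). The rest were Aars2, Cars2, Fars2, Hars2, Rars2 and Sars2, with adjusted p-values from 0.198 (Hars2) to 0.482 (Aars2).

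Levels were compared per length, as FPKM. The median over the cytosolic enzymes ran from 37.3 to 61.1 FPKM across the 7 libraries and that over the mitochondrial enzymes from 7.22 to 10.4 FPKM, a ratio of 4.34 to 5.99 within a library. The ratio was 4.86 to 5.99 in diestrus and 5.89, 5.83 and 4.34 at estrus, so the groups overlapped. For 12 amino acids both a cytosolic gene and a gene with the same symbol ending in 2 were listed, and in 10 of these pairs the cytosolic gene was higher in every library. The exceptions were leucine and isoleucine. Lars had 0.37 to 0.686 times the FPKM of Lars2 in diestrus and 0.251 to 0.314 times at estrus. Iars and Iars2 were close to level, at a ratio of 0.864 to 1.43 in diestrus and 1.20 to 1.23 at estrus.

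The ratio of each pair, cytosolic over mitochondrial, was compared between the groups as a difference of log2(FPKM + 1). On that scale the groups did not overlap for 4 of the 12 amino acids. For single genes, the groups did not overlap in 21.9% of all rows with estrus higher and in 18.7% with estrus lower. The share among ratios of other genes was not computed, so the count is not read as particular to these pairs. The ranges given are of the plain FPKM ratio. The ratio was lower at estrus for Lars/Lars2, for Nars/Nars2 (23.0 to 33.8 in diestrus, 15.0 to 17.6 at estrus) and for Yars/Yars2 (2.71 to 6.59, then 2.37 to 2.45). It was higher at estrus for Tars/Tars2 (2.64 to 2.84, then 3.17 to 5.53). The plain FPKM ratio of Wars/Wars2 was also lower at estrus without overlap (15.5 to 29.0, then 6.84 to 15.4). With log2(FPKM + 1) the groups of Wars/Wars2 overlapped, so that pair is outside the count. For Nars both genes of the pair rose, and the fold change was larger for Nars2 (1.14) than for Nars (0.56). These ratios were described without a test.

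**Figure D3:**
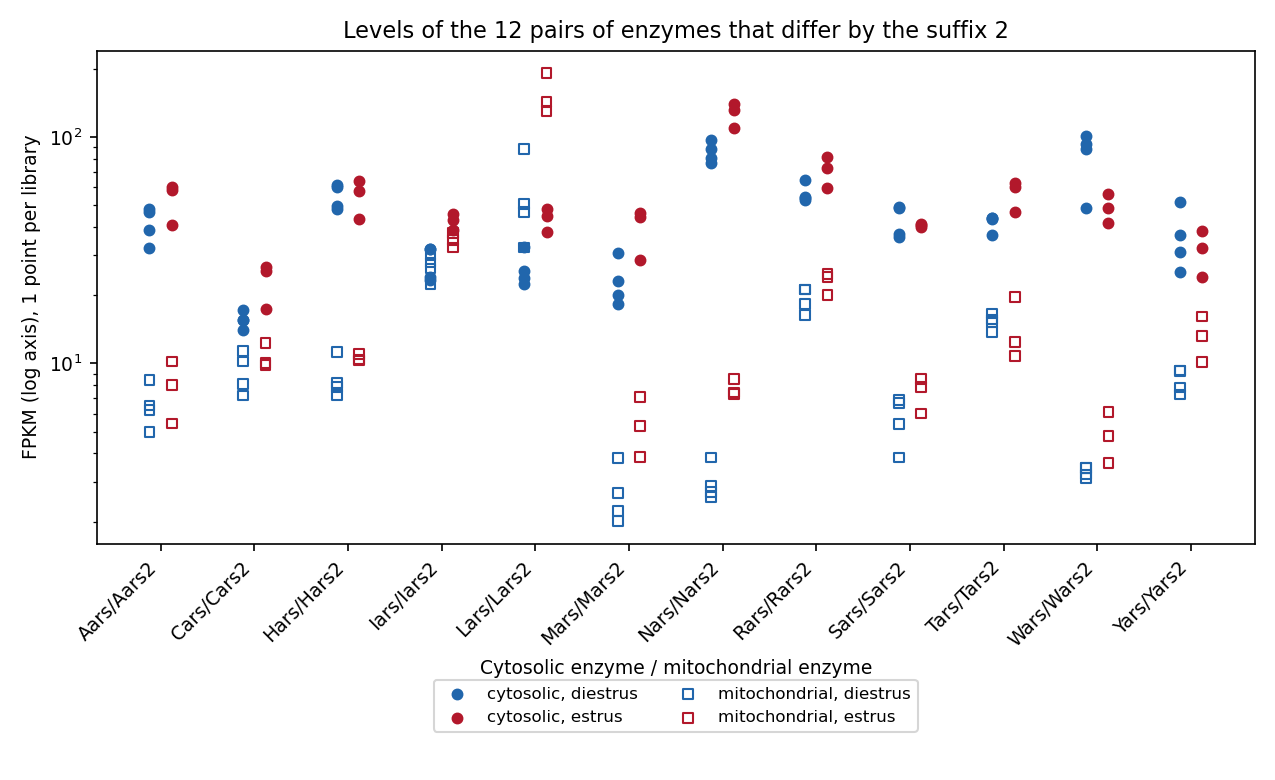
FPKM on a log axis of the 12 pairs of cytosolic (filled circles) and mitochondrial (open squares) enzymes, with 1 point per library and diestrus to the left of estrus in each pair. The Lars2 squares lie above the Lars circles, the Iars2 squares lie close to the Iars circles, and the other 10 pairs have the cytosolic enzyme on top.

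The synthetases also fall into the structural classes I and II, which carry different catalytic folds. Of 17 class I enzymes, 7 rose (median 0.41), and of 17 class II enzymes, 5 rose (median 0.34). Eprs, which holds an enzyme of each class, was left out of that count. The genes with an amino acid response element match were divided as well. Gars and Iars were called, and Aars, Tars and Yars were not.

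Genes that work beside the synthetases were read from the same test, in which 17.2% of all rows were called higher and 14.0% lower. The mitochondrial glutamyl-tRNA amidotransferase, which converts the product of Ears2 into glutaminyl-tRNA, has 3 subunits, and 1 of them rose. This was Qrsl1, the catalytic subunit, at 9.37, 5.85, 4.35 and 3.16 FPKM in diestrus and 17.9, 16.7 and 15.3 FPKM at estrus (1.48, adjusted p = 0.00956). Its groups did not overlap, and it was called without any one library. Gatc was at −0.16 and Pet112, an older symbol of Gatb, was at 0.07, with adjusted p-values of 0.233 and 0.693. Ears2 itself was not called (0.08, adjusted p = 0.696). Of 4 editing and deacylase genes, 0 rose and 1 fell, the D-aminoacyl-tRNA deacylase Dtd1. It measured 19.7, 32.1, 35.8 and 33.9 FPKM in diestrus and 7.57, 7.80 and 6.71 FPKM at estrus (−1.88, adjusted p = 0.00176), and it too was called without any one library.

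Genes of tRNA maturation and of the elongation steps were read beside the 17.2% of all rows called higher. Of 12 genes of tRNA maturation and export, 2 rose (Pus1, 0.64, and Elac2, 0.45) and 1 fell (Elac1, −0.51). Of 4 genes of the selenocysteine tRNA pathway, 2 rose, Sepsecs (0.69, adjusted p = 0.0244) and Eefsec (0.71, adjusted p = 0.0254). Each of these 5 calls was lost without estrus 2, at adjusted p-values of 0.101 (Pus1), 0.142 (Elac2), 0.0968 (Elac1), 0.109 (Sepsecs) and 0.109 (Eefsec), and without diestrus 4, at 0.0669, 0.105, 0.0695, 0.0652 and 0.065. Pus1 and Elac2 were also lost without diestrus 2 (0.058 and 0.0836) or estrus 1 (0.0831 and 0.126), and Elac2 without diestrus 3 (0.0875). Elac1 and Eefsec were also lost without diestrus 3 (0.0585 and 0.0546) or estrus 1 (0.0778 and 0.069), and Sepsecs without diestrus 2 (0.0555), diestrus 3 (0.058) or estrus 3 (0.06). Of 5 cytosolic elongation factors, 0 were called in limma and 0 had an unadjusted p under 0.05, with a median of −0.33. Of 76 mitochondrial ribosomal protein genes, 9 rose (11.8%) and 0 fell, with a median of 0.24. The number that rose was 2 under quantile normalization (with 3 that fell), 14 without diestrus 1, 4 without diestrus 2, 2 without diestrus 3 or 4, and 1 without estrus 1 or 2. Of all rows, 12.1% rose under quantile normalization (13.8% fell) and 20.8% without diestrus 1. The share was 12.8%, 12.6% and 10.4% without diestrus 2, 3 and 4, and 11.1% and 6.2% without estrus 1 and 2. Mrpl30 (0.57, adjusted p = 0.0131) was called without any one library. Mrps6 was lost without estrus 1 (0.0675) or estrus 2 (0.0811). Mrpl17 and Mrpl52 were lost without diestrus 3 (0.0526 and 0.0706), diestrus 4 (0.0587 and 0.0804), estrus 1 (0.0663 and 0.0969) or estrus 2 (0.0953 and 0.102). Of 11 mitochondrial translation factors, 2 rose (Gfm2, 0.45, and Tufm, 0.47). Gfm2 was lost without diestrus 2 (0.0523), diestrus 4 (0.0637), estrus 1 (0.0662) or estrus 2 (0.112), and Tufm was kept only without estrus 3 (0.0271).

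Genes of the amino acid response, most of them ATF4 targets, moved in both directions. Of 29 such genes, 3 rose (10.3%, against 17.2% of all rows) and 4 fell (against 14.0% of all rows), with a median of −0.06. Those that rose numbered 5 without diestrus 1, and those that fell numbered 2 without diestrus 4 or estrus 3 and 1 without estrus 2. Of all rows, 20.8% rose without diestrus 1, and 8.31%, 10.4% and 4.2% fell without diestrus 4, estrus 3 and estrus 2. Slc7a1, a cationic amino acid transporter, rose by 1.43 (adjusted p = 0.00347) and Ddit4, an mTORC1 inhibitor, by 2.02 (adjusted p = 0.00151), whereas Ddit3, the stress factor CHOP, fell by 1.28 (adjusted p = 0.002). Gpt2, a mitochondrial alanine aminotransferase, fell by 1.41 (adjusted p = 0.0114; 0.0572 without estrus 2). Atf4 itself ranged from 66.1 to 109 FPKM in diestrus and from 72.0 to 113 FPKM at estrus (0.16, adjusted p = 0.616). Its target asparagine synthetase, Asns, was also not called (−0.09, adjusted p = 0.776). Of 13 genes of the eIF2 kinases, phosphatase subunits and eIF2B, 5 rose (38.5%, against 17.2% of all rows) and 0 fell. Under quantile normalization only 2 rose, against 12.1% of all rows. Only 2 rose as well without any one of diestrus 2, 3 and 4 and estrus 1 and 2 (6.2% to 12.8% of all rows). The 2 called in each of these fits were the kinase Eif2ak2 (1.70, adjusted p = 0.00124) and the phosphatase subunit Ppp1r15b (1.00, adjusted p = 0.00417). Without estrus 2, Eif2s1, Eif2b1 and Gcn1l1 had adjusted p-values of 0.124, 0.137 and 0.143. Under quantile normalization and without diestrus 1, 1 gene of this list was called lower, against 13.8% and 17.7% of all rows.

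Of 17 interferon gamma response genes 15 were tested, with a median of 0.37. Of these, 5 rose (33.3%, against 17.2% of all rows) and 1 fell (against 14.0% of all rows). Without estrus 1, 3 rose, against 11.1% of all rows. The gene that fell (Ciita) was called only without diestrus 1 when a library was left out. Socs1, an inhibitor of cytokine signalling (0.80, adjusted p = 0.00367), and the receptor chain Ifngr2 (1.20, adjusted p = 0.00595) rose. Irf1, a transcription factor of the interferon response, was not called (0.27, adjusted p = 0.267). Of 21 Myc and ribosome biogenesis genes, 1 rose (4.76%, against 17.2% of all rows) and 1 fell. These were the growth-promoting transcription factors Mycn (1.23, adjusted p = 0.015, or 0.0609 without estrus 2) and Myc (−1.39, adjusted p = 0.0289). The call on Myc was lost without diestrus 4 (0.0721), estrus 2 (0.0982) or estrus 3 (0.0805). Of 12 regulators of mitochondrial biogenesis, 2 rose (16.7%, against 17.2% of all rows). They were the nuclear receptor Esrra (1.39, adjusted p = 0.003) and its coactivator Ppargc1b (0.70, adjusted p = 0.00747).

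**Figure D4:**
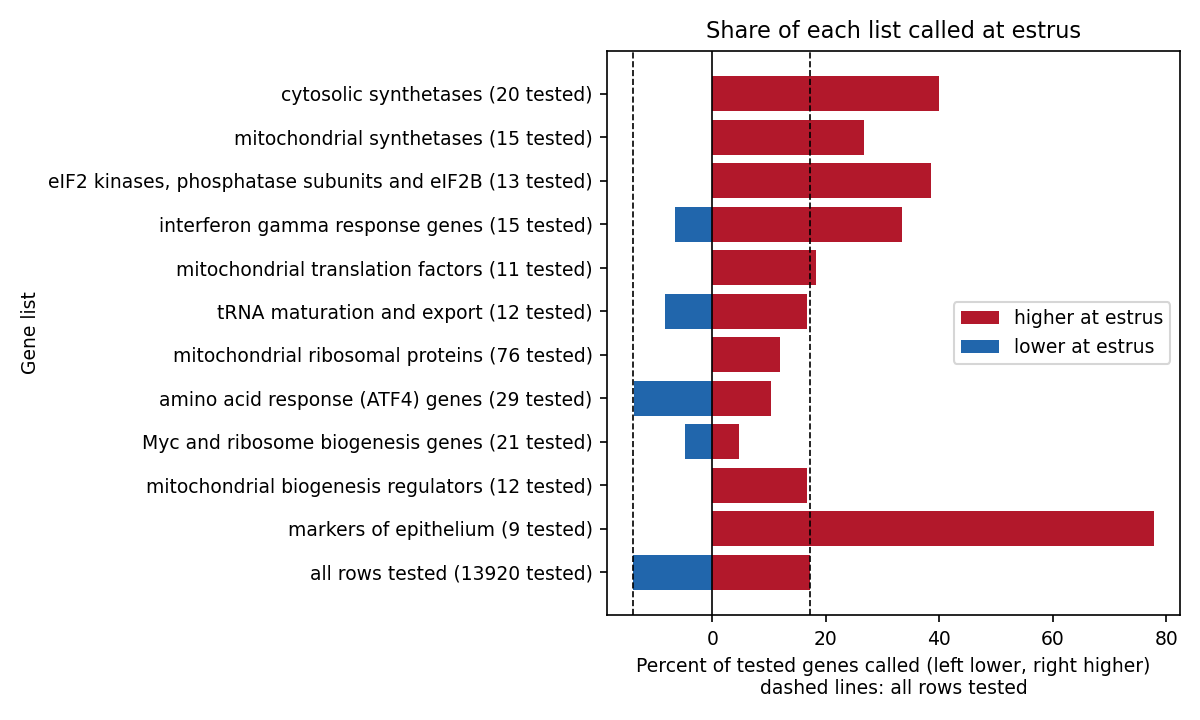
Percent of the tested genes of each list called higher (right) or lower (left) at estrus, with dashed lines at the 17.2% and 14.0% of all rows tested. The cytosolic synthetases are at 40.0% and the mitochondrial synthetases at 26.7% higher, and the epithelial markers reach 77.8%.

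Several synthetases lie head to head with a neighbour, counted here where the starts are within 1000 bases on opposite strands and the genes overlap by under 100 bases. This held for 5 of 35 members (14.3%) and 7.2% of 21951 protein-coding genes. Hars and Hars2, which overlap by more, were not counted, nor was Fars2 with Lyrm4. The pairs counted were Ears2 with Ubfd1, Kars with Terf2ip, Rars2 with Orc3, Sars2 with Mrps12 and Yars with S100pbp. S100pbp fell, at 15.9, 16.3, 46.7 and 28.7 FPKM in diestrus and 9.12, 7.52 and 9.46 FPKM at estrus (−1.39, adjusted p = 0.0246), and its call was lost without diestrus 4 (0.0627), estrus 1 (0.0645), estrus 2 (0.0968) or estrus 3 (0.052). Yars itself was highest in diestrus 3, as was S100pbp. The other 4 neighbours and all 5 of these synthetases were not called, although Mrps12 was called lower without estrus 1 (0.04) and under quantile normalization (0.0478). These pairs, the motifs and the sequence comparisons were chosen after the values of the members had been seen.

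Transcripts of 9 of the 35 members share at least 100 bases with another gene at 95% identity or more, and their values are uncertain to that extent. Beyond the cases above, Iars has a processed pseudogene, Gm4849, at 96.0% identity over 1656 bases, and Aars shares 1326 bases with Exosc6. Hars and Hars2 share 195 bases on opposite strands, Cars2 shares 217 with Naxd and Fars2 shares 115 with Lyrm4.

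The tissue label was checked against markers, and the levels of several cell type markers moved with the phase. Hoxa10, Hoxa11, Esr1, Pgr and Emx2, which are expressed in uterus, were between 25.0 and 195 FPKM in every library, and Hoxa10 and Hoxa11 fell at estrus (−2.06 and −1.98). Of 9 epithelial markers 7 rose, and their summed FPKM was 859 to 1155 in diestrus and 3071 to 3613 at estrus. Of 6 endothelial markers 6 fell (191 to 442 FPKM summed, then 111 to 146), and of 5 macrophage markers 3 fell (248 to 628, then 142 to 222). Krt18 (0.31) and Cldn4 (−0.57) among the epithelial markers, and C1qa (−0.92) and Cd68 (0.38) among the macrophage markers, were not called. Of 8 stromal markers 2 fell and of 6 smooth muscle markers 1 rose, with summed FPKM that overlapped (2999.6 to 5667 and 3899 to 5153 for stroma; 2486 to 6573 and 2845 to 5126 for muscle). Of 6 lymphocyte and plasma cell markers 3 were tested, of which 1 rose. In whole uterus, fewer cells of a type and less RNA per cell cannot be told apart, and the part of these shifts in the synthetase results was not tested.

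The number of fragments per library is unknown, but the steps between low FPKM values gave relative depths of 0.927 (estrus 3) to 1.35 (diestrus 2) times that of estrus 1. A single row, named only by a GenBank entry, took 22.4% of the summed FPKM of diestrus 1 and 19.6% to 27.5% in the estrus libraries, and was at 0 in diestrus 2, 3 and 4. The part of this row in the results was not tested. Estrus 3 was the lowest estrus library for 29 of the 35 synthetases, 19 of them cytosolic, and for all 12 that were called, against 37.7% of all rows. Diestrus 1 was the highest diestrus library for 17 of the 35, against 30.6% of all rows.

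The calls rested on few libraries. Without estrus 2, 0 cytosolic enzymes were called in limma (7 higher at an unadjusted p under 0.05, the smallest adjusted p being 0.0738, for Lars), and Nars2 was the mitochondrial enzyme called. All rows were also called less often then, at 6.2% higher. Without estrus 3, 10 cytosolic and 4 mitochondrial enzymes were called higher, against 13.9% of all rows. Gars was lost without estrus 1 (adjusted p = 0.0591) or estrus 2 (0.0778). Nars was lost without diestrus 4 (0.0601), estrus 1 (0.0683) or estrus 2 (0.107). Iars and Farsb were lost without diestrus 2 (0.0515 and 0.0585), diestrus 4 (0.0589 and 0.0678), estrus 1 (0.0678 and 0.0843) or estrus 2 (0.104 and 0.102). Mars, Mars2 and Yars2 were kept only without diestrus 1 (0.0156, 0.0159 and 0.0417) or estrus 3 (0.0257, 0.0305 and 0.0263). Dars was kept only without diestrus 1 (0.00424) and Cars only without estrus 3 (0.0169). Calls were also gained: Farsa (0.0167), Iars2 (0.0305) and Hars2 (0.032) without diestrus 1, Eprs without diestrus 3 (0.0497), Wars2 without estrus 1 (0.0451), and Vars (0.0227), Tars (0.0308) and Farsa (0.0445) without estrus 3. The log2 fold changes of the 12 genes called stayed positive in each of these 7 fits.

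**Figure D5:**
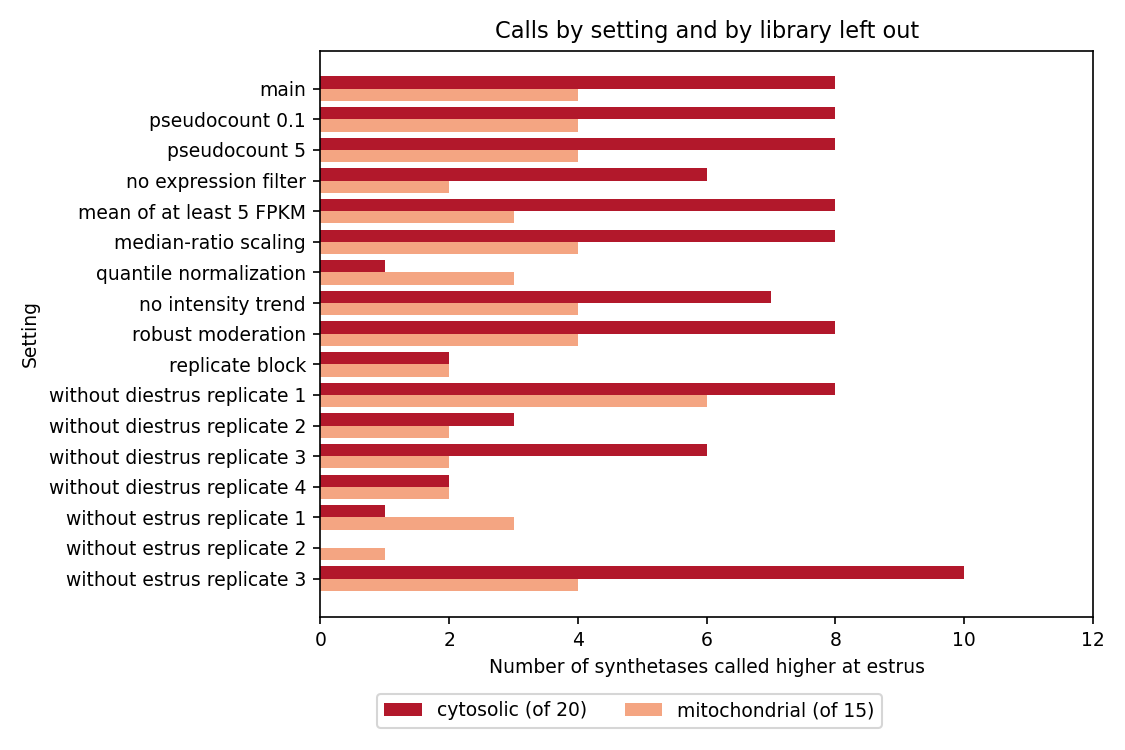
Number of cytosolic (dark) and mitochondrial (light) synthetases called higher at estrus in the fit reported here ("main") and in each of 16 alternatives, including those that leave out 1 library. The cytosolic count runs from 0 without estrus 2 to 10 without estrus 3, and the mitochondrial count from 1 to 6. The share of all rows called higher also varied, from 6.2% without estrus 2 to 20.8% without diestrus 1.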

How the data were processed

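RNA-seq libraries had been made with a TruSeq RNA kit from column-purified, DNase-treated RNA, per the labels' protocols. The deposited table gives FPKM computed by the authors, with 1 column for each of the 7 libraries and 0 columns left over. Per the submitters' processing notes, TopHat2 2.0.4 and the build mm10 were used, without their roles. The FPKM program, its annotation, its use of strand and the fragment totals were not given in the sources used here, so no interval from counts is given and precision rests on the replicates.

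Rows with at least 1 FPKM in at least 3 libraries were tested with limma 3.58.1 (R 4.3.3) on log2(FPKM + 1), a pseudocount of 1 that understates changes of low genes. The design had 2 groups and no covariates, with empirical Bayes moderation along an intensity trend, two-sided p-values and Benjamini-Hochberg adjustment over the 13920 rows (threshold 0.05). The script was tested on simulated data. Tables and plots were made with Python 3.11.15 and matplotlib 3.10.9, and shared sequence was searched with BLAST 2.17.0 in GENCODE M21 transcripts.

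Members called are given in every library, with up to 4 others of highest mean, and other lists by counts and up to 4 genes of smallest p-value. Atf4, Asns, Myc, Irf1, Aimp1, Aimp2 and Eef1e1 are always given. Neighbouring genes and Ears2, Eprs, Farsa, Tars, Vars and other members near the threshold were named after their values were seen. The rule for the members used symbols alone, but the set and the other lists were chosen with earlier results of these data known. Alternatives changed the pseudocount (0.1 or 5), the filter (none, or a mean of at least 5 FPKM), the scaling (median-ratio or quantile), the moderation, the replicate block and the libraries used.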

Additional observations from a re-analysis of the deposited data

Results flagged for a closer look

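For each of the 35 synthetases the 4 diestrus libraries were checked for 1 library far from the others by Dixon's ratio, and 2 values stood apart, where chance flags about 1 in 20 groups. Flags in 2 of 35 groups are near that rate, so neither value is read as a result. Rars was at 64.4 FPKM in diestrus 3, against 52.8 to 54.4 FPKM in the other diestrus libraries. Tars was at 37.0 FPKM in diestrus 4, against 43.2 to 43.9 FPKM in the others. Groups of 3 estrus libraries are too small for this check.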

How the results depend on the processing

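Across all rows 4336 were called, against 2281 with the replicate block and 1433 (without estrus 2) to 5311 (without diestrus 1) when 1 library was left out. Cytosolic enzymes called higher were 8, but 1 under quantile normalization, 6 without the filter, 7 without the intensity trend, 2 with the replicate block and 0 to 10 without 1 library. Those called lower were 0, but 1 (Wars) under quantile normalization and 0 to 1 without 1 library. Mitochondrial enzymes called higher were 4, but 2 without the filter, 3 under quantile normalization or with a mean of at least 5 FPKM, 2 with the block and 1 to 6 without 1 library. Of all rows, 12.1% were higher under quantile normalization, 10.2% without the filter, 16.9% without the intensity trend and 19.4% with the mean filter. The share was 9.33% with the block and 6.2% to 20.8% without 1 library. Without estrus 1, 1 cytosolic enzyme was called higher, against 11.1% of all rows, and without diestrus 4, 2 were, against 10.4%. With the block, Gars (adjusted p = 0.0299), Mars (0.044), Nars2 (0.0246) and Lars2 (0.0346) stayed called. Diestrus 4 has no partner there and does not enter the estimate. Whether the numbers pair the libraries cannot be settled from these values. Deviations from the group means correlated at 0.198, 0.0243 and 0.169 for same-numbered libraries. For libraries of different number the correlations ran from −0.326 to 0.267, a range that holds the other values. Single values that changed sign, none of them called, were Hars (0.00 under median-ratio scaling, −0.12 to 0.15 without 1 library), Kars (−0.03 under quantile normalization), Sars (0.01 with the block, −0.13 to 0.02 without 1 library), Yars (−0.32 to 0.01) and Tars2 (−0.37 to 0.03). Beside these 11 values, 473 of the members' values kept direction and side of the threshold, 63 lost a call and 10 gained one. The cause of these changes was not tested.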
